A study of Homo sapiens with 6 samples.

Results

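The genes described here are 9 genes of antigen presentation by MHC class I molecules, chosen by their symbols from the 58174 genes listed for each sample. They are the heavy chain genes HLA-B, HLA-C, HLA-E and HLA-F, the light chain gene B2M, the peptide transport and loading genes TAP1, TAP2 and TAPBP, and the transactivator gene NLRC5. RNA-seq was performed on T24, an established human bladder cancer cell line, carrying either a lentiviral shRNA against UBC9 (shRNA-UBC9, 3 samples) or a scrambled control shRNA (shRNA-NC, 3 samples), and both lines had been selected with puromycin. UBC9 is the only conjugating enzyme for SUMO, a small protein that is attached to other proteins. The knockdown rests on 1 hairpin sequence, and nothing states that the 3 samples of a group came from separate cultures, so p-values here measure only the spread between these samples.

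Class I molecules sit on the surface of nearly all nucleated cells and show them, as short peptides, a sample of the proteins made inside. A heavy chain pairs with beta-2-microglobulin in the endoplasmic reticulum, where the TAP1-TAP2 transporter delivers peptides cut by the proteasome and tapasin (TAPBP) helps to load them. Cytotoxic T cells read the peptides on the classical chains such as HLA-B and HLA-C, and natural killer cells read the non-classical HLA-E. Interferons raise the transcription of these genes through interferon regulatory factors (IRFs) and NLRC5, and tumour cells often have low class I levels.

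Levels are given in RPKM (reads scaled by gene length and by the mapped reads of the sample). RPKM values are whole numbers of reads multiplied by a constant of the gene and the sample, and for all 12428 tested genes the values came back to whole reads, which for the 9 class I genes lay within 3.9e-05 of a read. These reads summed to between 25919540 and 32676395 per sample, and each class I gene had between 477 and 93188 reads in a sample. The epithelial keratins KRT7, KRT8, KRT18 and KRT19 were well expressed, while KRT5 was listed at 0 in every sample and CDH1 and the uroplakin genes UPK1B, UPK2 and UPK3A, markers of epithelium and of normal urothelium, were near 0. The 4 T cell markers PTPRC, CD3D, CD3E and CD2 were all at 0 in shRNA-NC replicate 1 and shRNA-UBC9 replicate 3 and all above 0 in the other libraries, where they summed to between 0.521 and 0.710 RPKM. The libraries at 0 also had fewer genes detected, 18059 and 18254 against 19002 to 19725. They had fewer recovered reads as well, 27275088 and 25919540 against 30895692 to 32676395, so the number of genes detected went with depth. This split crosses the groups, and the class I values are given below within it.

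The starts of these genes are shown because their letters are where IRFs and NLRC5 are known to act. RefSeq promoters (GRCh38.p14, 250 bases before to 50 after a start) were found for 7 of the 9 genes, with 2 starts for TAP1, of which 1 is shown, and HLA-E and NLRC5 had no entry. The stretches below run 5′ to 3′ on the strand of the gene and stop before the start site, and capitals mark the IRF core AANNGAAA on either strand.
HLA-B, chr6:31357242-31357364, minus strand: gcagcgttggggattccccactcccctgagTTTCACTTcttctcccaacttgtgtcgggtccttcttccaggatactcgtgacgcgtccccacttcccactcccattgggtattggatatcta
HLA-C, chr6:31272151-31272273, minus strand: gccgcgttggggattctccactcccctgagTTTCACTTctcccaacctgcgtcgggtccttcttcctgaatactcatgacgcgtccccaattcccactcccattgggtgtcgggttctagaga
HLA-F, chr6:29723248-29723370, plus strand: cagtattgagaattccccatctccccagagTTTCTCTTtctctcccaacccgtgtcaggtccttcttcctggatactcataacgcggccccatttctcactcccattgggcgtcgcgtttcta
B2M, chr15:44711345-44711467, plus strand: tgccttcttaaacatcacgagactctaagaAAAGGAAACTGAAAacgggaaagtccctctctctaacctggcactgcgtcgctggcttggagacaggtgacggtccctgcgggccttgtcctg
TAP1, chr6:32853746-32853868, minus strand: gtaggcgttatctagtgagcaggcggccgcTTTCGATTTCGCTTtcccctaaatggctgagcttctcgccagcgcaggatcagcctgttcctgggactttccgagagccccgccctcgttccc
TAP2, chr6:32838740-32838831, minus strand: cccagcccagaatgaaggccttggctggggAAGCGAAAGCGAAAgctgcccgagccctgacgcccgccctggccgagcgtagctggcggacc
TAPBP, chr6:33314079-33314126, minus strand: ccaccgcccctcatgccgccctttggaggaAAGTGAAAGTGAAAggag

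The IRF core was in 7 of the 8 promoters of these genes, all but the second TAP1 start, against 22.8% of the 35116 RefSeq promoters of the same length, and the motifs were picked with these promoters in view. The longer core GAAANNGAAA of interferon-stimulated response elements, which overlaps the first motif, was in B2M, HLA-F, TAP1, TAP2 and TAPBP and in 3.57% of all promoters. A pattern like the NF-kappaB site, GGGNNTTNCC, was in B2M, HLA-B, TAP1 and TAPBP and in 5.68% of all promoters. The letters TGACG followed within 40 bases by ATTGG, the arrangement of the X2 and Y boxes through which NLRC5 is known to act, were in HLA-B, HLA-C and B2M and in 1.23% of all promoters. In all searches both strands were read. TAPBP, whose level did not pass the test below, held the IRF core in 2 overlapping copies, as TAP1, TAP2 and B2M did.

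Knockdown of UBC9 was accompanied by higher transcripts of most class I genes. Log2 fold changes of single genes are from limma on log2(RPKM + 0.1) unless another setting is named. Sums, ratios and ratios of means are of RPKM itself. Of the 9 genes, 8 were higher in shRNA-UBC9 at an adjusted p below 0.05 and none was lower. Of all 12428 tested genes, 18.8% were higher and 18.0% lower. With a log2 fold change over 1 in addition, 6 of 9 passed, HLA-B, HLA-F, TAP1, HLA-C, NLRC5 and B2M, against 5.20% of all tested genes. The median log2 fold change was 1.26 over the 9 genes and 0.0048 over all tested genes. For 8 of 9 the lowest shRNA-UBC9 sample lay above the highest shRNA-NC sample, against 25.7% of all tested genes. TAPBP passed none of these counts, and HLA-E and TAP2 fell short of the fold cutoff.

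**Figure D1:**
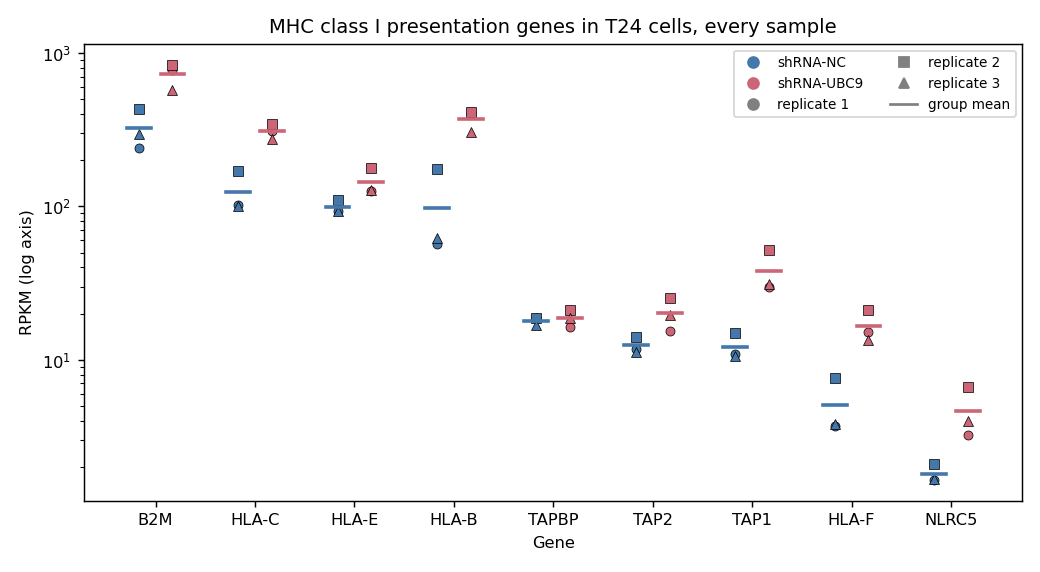
RPKM of each of the 9 class I genes on a log axis, with 1 point per sample, colours for the groups, shapes for the replicate numbers and bars for the group means. The shRNA-UBC9 points lie above all shRNA-NC points for each gene but TAPBP, and replicate 2 (squares) is the highest of its group for most genes.

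HLA-B (chr6:31353872-31367067, GENCODE release 44 on GRCh38), a classical heavy chain, changed most of the 9 genes. It was at 57.1, 174 and 61.9 RPKM in shRNA-NC replicates 1, 2 and 3 and at 404, 412 and 307 RPKM in shRNA-UBC9 replicates 1, 2 and 3. The groups did not overlap, although shRNA-NC replicate 2 was about 2.93 times the mean of the other controls. The log2 fold change was 2.12 (standard error 0.38, adjusted p = 0.00369 from limma), and it was 2.64 without shRNA-NC replicate 2. The ratio of the group means was 3.83 with all samples and 5.98 without replicate 2 of both groups, so its size depended on replicate 2.

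HLA-C (chr6:31268749-31272130), the other classical heavy chain, was at 101, 171 and 100.2 RPKM in shRNA-NC and at 310.0, 345 and 275 RPKM in shRNA-UBC9, in the order of replicates 1 to 3. Again shRNA-NC replicate 2 stood above the other controls and below every knockdown sample. The log2 fold change was 1.36 (standard error 0.20, adjusted p = 0.00164 from limma). HLA-F (chr6:29722775-29738528), a non-classical chain of restricted expression, was the lowest heavy chain, at 3.68, 7.64 and 3.79 RPKM in shRNA-NC and 15.2, 21.0 and 13.4 RPKM in shRNA-UBC9. Its log2 fold change was 1.75 (standard error 0.28, adjusted p = 0.0023 from limma).

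HLA-E (chr6:30489509-30494194), which presents leader peptides of other class I chains to the inhibitory receptor NKG2A on natural killer cells, changed least of the heavy chains. It was at 93.6, 111 and 92.8 RPKM in shRNA-NC and at 125.5, 178 and 128 RPKM in shRNA-UBC9, so the lowest knockdown sample was 1.13 times the highest control. The log2 fold change was 0.53 (standard error 0.15, adjusted p = 0.0237 from limma). The call was lost without shRNA-NC replicate 1 (adjusted p = 0.0783), without shRNA-NC replicate 3 (0.0823) and without shRNA-UBC9 replicate 2 (0.0517, with a log2 fold change of 0.36).

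The share of each heavy chain followed these unequal changes. HLA-B made up 27.9% ± 8.4 (SD, n = 3) of the summed RPKM of the 4 heavy chain genes in shRNA-NC and 44.3% ± 2.6 (SD, n = 3) in shRNA-UBC9. The share of HLA-E was smaller in shRNA-UBC9, at 32.1% ± 7.1 in shRNA-NC and 17% ± 2.1 in shRNA-UBC9 (SD, n = 3 each), while HLA-C held 38.4% ± 1.4 and 36.8% ± 1.0 (SD, n = 3 each). In shRNA-NC replicate 2 HLA-B already held 37.6%, against 22.3% and 23.9% in the other controls, and the lowest knockdown sample held 42.4%. The ratio of HLA-B to HLA-C was 0.733 ± 0.249 in shRNA-NC and 1.20 ± 0.09 in shRNA-UBC9 (SD, n = 3 each), with no overlap. The two-sided exact permutation p was 0.1, which is as low as this design can go, and it was the same for each of the 5 sums and ratios compared, also after Benjamini-Hochberg adjustment over the 5.

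**Figure D2:**
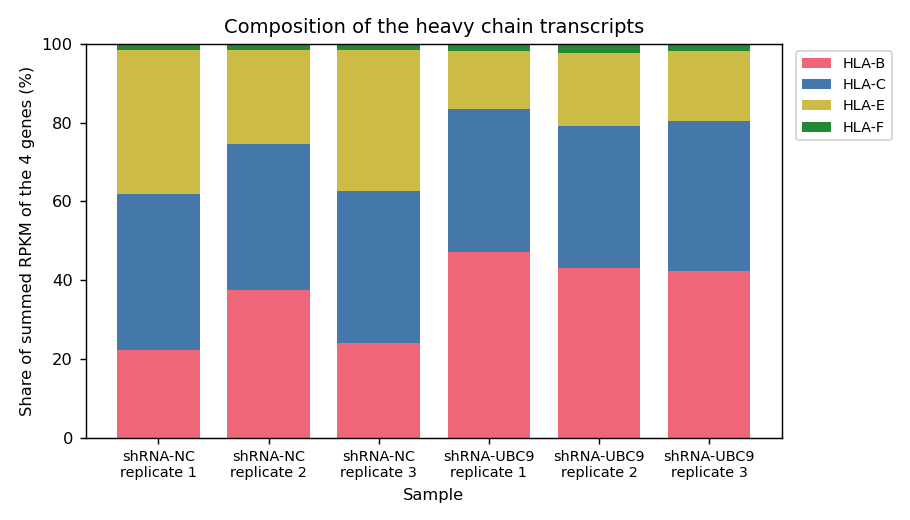
Stacked bars of the share, in percent, of HLA-B, HLA-C, HLA-E and HLA-F in their summed RPKM, with 1 bar per sample. HLA-B holds 42.4% to 47.3% in the shRNA-UBC9 samples and 22.3% to 37.6% in the shRNA-NC samples.

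Heavy chain genes are alike, and how reads that fit several of them were assigned is not stated. The 4 genes together had 21573, 45785 and 24790 recovered reads in shRNA-NC and 88324, 96567 and 58234 in shRNA-UBC9, totals that moving reads among the 4 leaves as they are. Their summed RPKM, in which each gene is divided by its own length and which such moves would change, was 256, 463 and 259 in shRNA-NC and 855, 955 and 723 in shRNA-UBC9. The summed RPKM was 2.68-fold higher in shRNA-UBC9 as a ratio of geometric means, with no overlap (exact permutation p = 0.1). In the canonical GENCODE transcripts, between 1.44% and 3.75% of the 50-base stretches of a heavy chain gene occurred letter for letter in another. For 100-base stretches this was 0%. Stretches that were alike but not identical were not counted, so reads that fit with mismatches are not covered. The transcripts are reference alleles. The alleles of T24 can differ from them, and class I genes outside the 4 can share reads with these genes, and neither was tested.

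B2M (chr15:44711358-44718851), the light chain shared by all class I molecules, was the most abundant of the 9 transcripts in both groups. It was at 241, 430.0 and 299 RPKM in shRNA-NC and at 777, 839 and 575 RPKM in shRNA-UBC9. The groups did not overlap, and the log2 fold change was 1.20 (standard error 0.22, adjusted p = 0.00393 from limma). Per unit of length, the 4 heavy chain transcripts together were 1.06, 1.08 and 0.867 times B2M in shRNA-NC and 1.10, 1.14 and 1.26 times B2M in shRNA-UBC9. The ratio was higher in shRNA-UBC9 by 0.22 on the log2 scale with no overlap (exact permutation p = 0.1), though the nearest samples, 1.08 and 1.10, lay close together. Without shRNA-NC replicate 3 the difference was 0.12.

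The transporter genes changed unequally. TAP1 (chr6:32845209-32853816) was at 10.8, 14.9 and 10.6 RPKM in shRNA-NC and at 30.0, 51.9 and 31.1 RPKM in shRNA-UBC9, where the lowest knockdown sample was 2.01 times the highest control, the widest gap of the 9 genes. Its log2 fold change was 1.60 (standard error 0.22, adjusted p = 0.00123 from limma). TAP2 (chr6:32821833-32838739), which encodes the partner chain of the transporter, was at 11.8, 14.1 and 11.2 RPKM in shRNA-NC and at 15.3, 25.2 and 19.5 RPKM in shRNA-UBC9. Its log2 fold change was 0.67 (standard error 0.18, adjusted p = 0.0191 from limma). The adjusted p was 0.0637 without shRNA-NC replicate 1 and 0.072 without shRNA-NC replicate 3. The ratio of TAP1 to TAP2 was 0.973 ± 0.074 in shRNA-NC and 1.87 ± 0.25 in shRNA-UBC9 (SD, n = 3 each), and the groups did not overlap (exact permutation p = 0.1).

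TAPBP (chr6:33299694-33314284), the gene of the loading chaperone tapasin, was at 18.7, 18.6 and 16.8 RPKM in shRNA-NC and at 16.4, 21.1 and 18.8 RPKM in shRNA-UBC9. The groups overlapped fully, with the lowest knockdown sample below every control. Its log2 fold change was 0.05 (95% interval -0.20 to 0.31, adjusted p = 0.726 from limma), so a change as large as that of any of the 6 genes past the fold cutoff lay outside its interval. In the controls TAPBP was above both transporter genes in every sample, and in shRNA-UBC9 TAP1 was above TAPBP in every sample.

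NLRC5 (chr16:56989485-57083531), the transactivator that drives class I genes and is itself raised by interferon, was the lowest of the 9 in both groups. It was at 1.64, 2.08 and 1.67 RPKM in shRNA-NC and at 3.24, 6.60 and 4.0 RPKM in shRNA-UBC9, where replicate 2 was 1.82 times the mean of the others. The log2 fold change was 1.26 (standard error 0.24, adjusted p = 0.00468 from limma), and 0.97 without shRNA-UBC9 replicate 2.

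**Figure D3:**
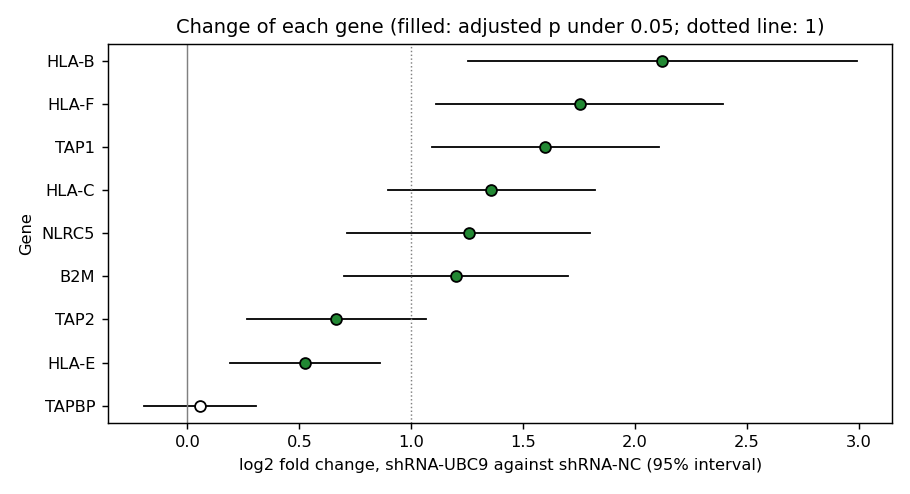
log2 fold change of each class I gene between shRNA-UBC9 and shRNA-NC with its 95% interval from limma. HLA-B is highest at 2.12, TAP2 and HLA-E lie below 1, and the interval of TAPBP runs from -0.20 to 0.31.

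In order of mean RPKM, B2M came first and NLRC5 last in both groups. HLA-C, HLA-E and HLA-B followed B2M in shRNA-NC, with means of 124, 99.0 and 97.7 RPKM. HLA-C was above HLA-E in each shRNA-NC sample, while HLA-B was above both in replicate 2 and below both in the other controls. Next came TAPBP, TAP2, TAP1 and HLA-F, and TAP1 was below TAP2 in replicates 1 and 3 and above it in replicate 2. In shRNA-UBC9 B2M was followed by HLA-B at 374 ± 59 RPKM, HLA-C at 310 ± 35 RPKM and HLA-E at 144 ± 30 RPKM (SD, n = 3 each), with overlap between HLA-B and HLA-C. TAP1 came next at 37.7 RPKM, above TAP2, TAPBP and HLA-F, whose values overlapped one another in part.

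The class I genes also varied together between samples of 1 group. Replicate 2 was the highest sample of both groups in 8 of the 9 genes, against 14.8% of all tested genes. The median deviation of the 9 genes from their group mean was 0.32 on the log2 scale in shRNA-NC replicate 2 and 0.33 in shRNA-UBC9 replicate 2, and between -0.18 and -0.13 in the other 4 samples. With replicate 2 of both groups left out, all 8 genes still passed, with log2 fold changes of 2.56 for HLA-B, 1.502 for TAP1, 1.08 for NLRC5, 0.58 for TAP2 and 0.44 for HLA-E. Between the 2 libraries without T cell marker reads, shRNA-UBC9 replicate 3 was 5.37 times shRNA-NC replicate 1 for HLA-B, 2.71 times for HLA-C, 2.39 times for B2M and 2.87 times for TAP1. Among the 4 libraries with such reads the ratios of means were 3.46, 2.42, 2.22 and 3.21. With the split as a batch term 8 of 9 genes passed, and within those 4 libraries alone 6 did, the exceptions being TAP2 and HLA-E beside TAPBP.

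Of 8 tested genes of general chaperones and peptide trimming in the endoplasmic reticulum, 1 was higher and none was lower, against 18.8% higher and 18.0% lower of all tested genes, and the median log2 fold change was 0.19. The gene that passed was TAPBPL, which encodes the tapasin-related peptide editor TAPBPR, at 3.03 ± 0.45 RPKM in shRNA-NC and 4.76 ± 0.87 RPKM in shRNA-UBC9 (SD, n = 3 each, adjusted p = 0.015 from limma). The trimming peptidase gene ERAP1 was at 9.90 ± 1.39 and 11.6 ± 2.1 RPKM (SD, n = 3 each, adjusted p = 0.284 from limma). The chaperone genes CALR, CANX and PDIA3 had log2 fold changes of 0.16, -0.01 and -0.0002.

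Of 5 genes of the immunoproteasome and of the proteasome activator, 2 were higher, against 18.8% of all tested genes. These were PSMB8 with a log2 fold change of 0.92 and PSMB9 with 1.16. The immunoproteasome gene PSMB10 (log2 fold change -0.12, adjusted p = 0.632 from limma) and the activator gene PSME1 (0.19, adjusted p = 0.26) did not pass. The activator gene PSME2 fell just short (log2 fold change 0.46, adjusted p = 0.0502 from limma). Under other settings of the fit 2 or 3 of the 5 genes were higher, with 3, for example, when replicate 2 of both groups was left out. The canonical starts of PSMB9 and TAP1 lie 488 bases apart on opposite strands around a shared promoter region. The whole span that GENCODE lists for PSMB9 (chr6:32844136-32859851) covers TAP1, and sharing of reads between these genes was not tested. PSMB9 was at 5.04, 8.36 and 5.26 RPKM in shRNA-NC and at 11.5, 18.5 and 12.03 RPKM in shRNA-UBC9 (adjusted p = 0.00606 from limma). The ratio of TAP1 to PSMB9 was 1.98 ± 0.18 in shRNA-NC and 2.67 ± 0.13 in shRNA-UBC9 (SD, n = 3 each), with no overlap (exact permutation p = 0.1).

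Among 15 genes of transcription factors known to act on class I promoters, 7 were higher, 2 were lower and 6 did not pass, against 18.8% higher and 18.0% lower of all tested genes. IRF9, a subunit of the complex that binds interferon response elements, had a log2 fold change of 1.52 (limma, adjusted p = 0.000109). STAT2 had a log2 fold change of 0.85 and IRF2 of 0.60. IRF1, a strong activator of class I genes, was not among them, at 7.23 ± 0.53 RPKM in shRNA-NC and 5.36 ± 1.63 RPKM in shRNA-UBC9 (SD, n = 3 each, log2 fold change -0.46, adjusted p = 0.0834 from limma). The NF-kappaB subunit genes NFKB1 and RELA had log2 fold changes of 0.60 and 0.44. Of the RFX factors that recruit NLRC5, RFX5 was higher (log2 fold change 0.34, adjusted p = 0.0274 from limma), RFXANK was lower (-0.76, adjusted p = 0.00522) and RFXAP was at 2.67 and 2.68 RPKM on average. NFYB, a subunit of the factor at the Y box, was lower with a log2 fold change of -0.38.

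Of 11 genes of interferons and their receptors, 7 passed the filter on low values, and 5 of these were higher and none lower, against 18.8% higher and 18.0% lower of all tested genes. With an RPKM of at least 1 required in all samples, 3 were higher. IFNGR2, a chain of the interferon gamma receptor, was at 13.7 ± 0.4 RPKM in shRNA-NC and 27.7 ± 4.4 RPKM in shRNA-UBC9 (SD, n = 3 each, adjusted p = 0.000551), and IFNAR2, a chain of the type I receptor, had a log2 fold change of 0.71. IFNL1, a type III interferon, had 0.0585 ± 0.0168 RPKM in shRNA-NC and 1.23 ± 1.0 RPKM in shRNA-UBC9 (SD, n = 3 each). Its controls held 1, 2 and 2 reads, and it passed the filter only through the shRNA-UBC9 samples. It is among the 5 genes counted as higher, and its test is not used further. IFNG was listed at 0 in every sample, and IFNB1 was listed at 0 in every shRNA-NC sample and averaged 0.494 RPKM in shRNA-UBC9, too low to be tested.

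Of 8 tested class I-like genes, 3 were higher and 2 were lower, against 18.8% and 18.0% of all tested genes. ULBP2, a ligand of the activating receptor NKG2D, was higher (log2 fold change 1.07, adjusted p = 0.000193 from limma), as were MICA (0.58) and MICB (0.49), while ULBP3, another such ligand, was lower (-0.81, adjusted p = 0.00429) and so was the iron regulator HFE (-0.31). HLA-G and CD1D did not reach 0.5 RPKM in any sample.

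Class II genes, which present peptides from outside the cell, were mostly silent. Of 13 genes listed, 9 did not reach 0.5 RPKM in any sample, among them the class II master regulator CIITA at 0.123 and 0.105 RPKM on average. Of the 4 tested, 3 were higher, against 18.8% of all tested genes, and 2 were with an RPKM of at least 1 required in all samples. The protease gene CTSS went from 0.39 ± 0.18 to 13.6 ± 4.1 RPKM, CD74 (the invariant chain) from 3.36 ± 2.10 to 8.88 ± 1.60 RPKM and HLA-DPB1 from 7.45 ± 0.64 to 9.41 ± 0.66 RPKM (SD, n = 3 each). CTSS reached 0.5 RPKM in 1 control only, so that it too passed the filter through the shRNA-UBC9 samples.

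**Figure D4:**
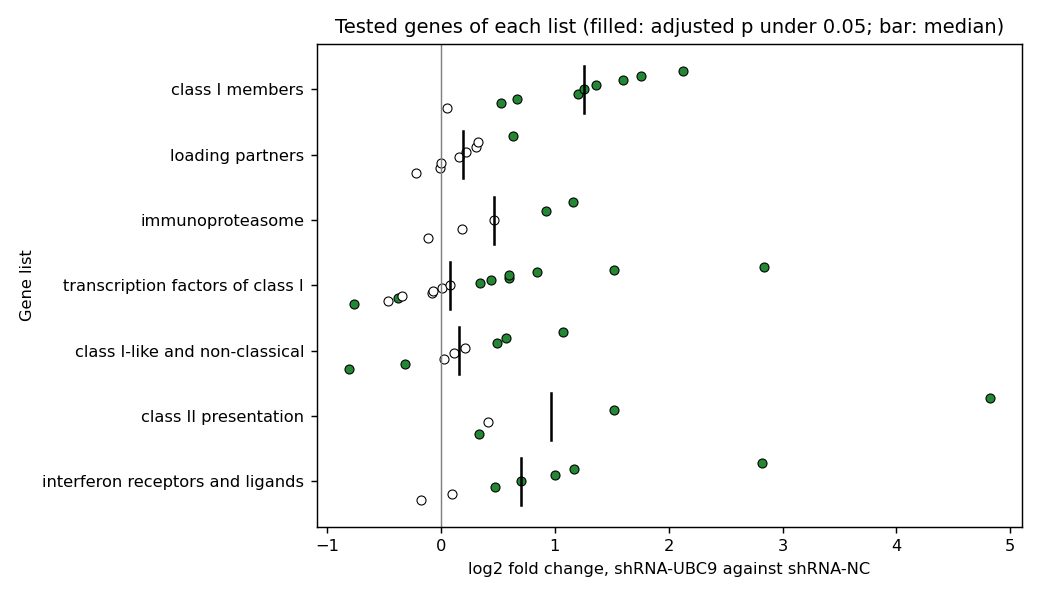
log2 fold change between shRNA-UBC9 and shRNA-NC of each tested gene of the class I genes and of 6 further lists, with filled points for an adjusted p below 0.05 from limma and a bar at the median of a list. The median of the class I genes is 1.26, and those of the loading partners and of the transcription factors are 0.19 and 0.08.

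The genes outside the 9 whose values over the 6 samples were most like the mean of the standardised class I values were ELOA, PSMB9, ST7, PSMB8 and PSMD12, with Pearson correlations of 0.9972, 0.9964, 0.9958, 0.9954 and 0.9935. These correlations are descriptions over 6 samples of 2 groups and were picked as the highest of all tested genes. They do not rank genes by the size of their change, since ELOA had a log2 fold change of 0.36.

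Markers of other cells were low. The 12 leukocyte markers summed to between 0.697 and 1.36 RPKM in shRNA-NC and between 0.792 and 1.599 RPKM in shRNA-UBC9, 11 of them did not reach 0.5 RPKM in any sample, and the B cell marker MS4A1 was listed at 0 throughout. Of 8 fibroblast and endothelial markers, which summed to between 3.88 and 4.49 RPKM in shRNA-NC and between 1.58 and 1.96 RPKM in shRNA-UBC9, 3 passed the filter, each through the group where it was higher. COL1A1 was at 0.377 and 0.818 RPKM on average in shRNA-NC and shRNA-UBC9, PDGFRB at 0.764 and 0.202 RPKM and CDH5 at 2.87 and 0.619 RPKM, and none of them had an RPKM of at least 1 in all samples. Of 10 epithelial markers 5 were tested, and 4 of these were lower, against 18.0% of all tested genes, with KRT7 going from 556 ± 62 to 258 ± 38 RPKM (SD, n = 3 each). EPCAM, the other tested marker, went the other way without passing (log2 fold change 0.996, adjusted p = 0.0984 from limma). Its groups overlapped. The part of these shifts in the class I values was not tested.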

How the data were processed

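Groups and replicate numbers were taken from the sample titles. The authors trimmed adaptors, aligned reads to GRCh38 in CLC Biomedical Genomics Workbench and deposited RPKM per gene. The annotation release, the handling of multiply mapped reads and the use of strand are not given in the sources used here. Genes with at least 0.5 RPKM in at least 3 samples (12428 of 58174, all 9 class I genes included) were tested with limma 3.58.1 in R 4.3.3 on log2(RPKM + 0.1), with an intensity trend and Benjamini-Hochberg adjustment over all tested genes. No count model was the main test. Whole reads were recovered from the steps of the deposited RPKM values, as the smallest whole numbers that give the 6 values of a gene. Single measures were compared by two-sided exact permutation tests of 3 samples against 3, which cannot go below 0.1.

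The class I genes, the other gene lists and the tests were chosen with earlier results of these data known. The genes named are the 9 class I genes, up to 6 genes per list past the test together with PSMB9, IRF1, RFX5 and ERAP1, and the 5 genes most like the class I mean. Other genes were named after their values were seen. Positions are from GENCODE release 44, promoters from RefSeq. On simulated data with 12428 genes, limma recovered 77% of genes changed by 1 and 95% of genes changed by 2 on the log2 scale. It called 10 unchanged genes. The simulated noise was independent between genes, and 100 genes were changed at each size, all upward. Shifts shared by the genes of a sample were not simulated, so these rates need not hold for the real samples. The alternatives were other pseudocounts, filters and scalings, no trend, a replicate block, samples left out and, chosen after seeing the data, limma-voom on the recovered reads and the split by T cell marker reads. The main fit did not treat samples of the same replicate number as pairs. Python 3.11.15, numpy 2.4.6, pandas 2.3.3, scipy 1.17.1 and matplotlib 3.10.9 were used. A few genes that this rule names are not reported here.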

Additional observations from a re-analysis of the deposited data

How the results depend on the processing

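Across 18 alternatives of the fit, between 6 and 8 of the 9 class I genes passed at an adjusted p below 0.05 and 5 or 6 also had a log2 fold change over 1, and their median log2 fold change ran from 1.09 to 1.43. HLA-B, HLA-C, HLA-F, B2M, TAP1 and NLRC5 passed under every one of them, with adjusted p-values (limma) of at most 0.0433, and NLRC5 fell to a log2 fold change of 0.96 with a pseudocount of 1. HLA-E lost its call under 5 of them and TAP2 under 4. With no filter on low values their adjusted p-values were 0.0644 and 0.0512, and within the 4 libraries with T cell marker reads they were 0.0855 and 0.118. With single samples left out TAPBP ran from a log2 fold change of -0.033, without shRNA-UBC9 replicate 2, to 0.15, and it also changed sign with replicate 2 of both groups left out (-0.0083) and passed under none.

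Over all tested genes, deviations from the group means in samples of the same number had correlations of -0.37, 0.07 and -0.17. These values show no pairing by number over all genes, which does not settle it for the class I genes. Replicate 2 was the highest sample of both groups in 8 of the 9 class I genes. With the number as a replicate block the same 8 class I genes passed, the median log2 fold change was 1.26, and the genes higher over all tested genes fell from 2339 to 1749. Genes of the other lists past the test numbered 32 and between 24 and 36 under the alternatives. Over all tested genes, 2339 were higher and 2237 lower, against 1387 and 1145 with replicate 2 of both groups left out and 1471 and 1376 in the 4 libraries. Of these, 646 and 335 had a log2 fold change beyond 1, against 391 and 161 with a pseudocount of 1 and 342 and 210 with an RPKM of at least 1 required in all samples. The 5 ratios and sums kept their direction under all 9 of their alternatives. As whole reads, each class I value rests on at least 477 reads, so counting error was small beside the spread between samples, and depth limits only the lowest listed genes such as IFNB1.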
